A study of Bos grunniens with 6 samples.

Results

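Hair matrix and follicle epithelium regulators are a group of 9 genes: the transcription factors MSX1, MSX2, HOXC13, FOXN1, GATA3, SOX9, LEF1 and TP63, and the thyroid hormone binding protein CRYM. They were taken from the expression table by symbol and make up 9 of its 15646 genes. The table lists 3 of them under older symbols, HOXC13 as HOX3G, FOXN1 as RONU and TP63 as KET. The rows of HOXC13 and FOXN1 carry no functional annotation and that of TP63 carries pathway terms only, so these 3 identities rest on the symbol.

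RNA was sequenced from cultured skin cells of the yak (Bos grunniens), in 3 libraries from dermal papilla (DPC) and 3 from hair matrix (HMC) cultures, all labelled wild type. The dermal papilla is the mesenchymal core of the hair bulb, and the hair matrix is the epithelium around it whose dividing cells build the hair shaft and inner root sheath. Both cell types grew in DMEM/F12 with antibiotics, 10% fetal bovine serum, EGF at 20 ng/mL and IGF1 at 10 ng/mL, so no culture lacked these factors. The libraries are labelled as biological replicates, but no animals, passages or cell densities are named. The p-values therefore measure only the spread between these libraries.

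In the growing follicle, SOX9, LHX2 and TP63 belong to the epithelial stem and progenitor layers, and GATA3 is known for the inner root sheath. LEF1 carries WNT signals through beta-catenin in matrix and papilla. MSX genes act downstream of bone morphogenetic proteins (BMPs), and HOXC13 and FOXN1 drive the hair keratin genes of the differentiating shaft. CRYM binds thyroid hormone inside the cell and is known as a transcript of the papilla.

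Values are FPKM, fragments scaled to gene length and to the mapped fragments of the library, and tests were made with limma on log2(FPKM + 1) for the genes whose mean reached 0.5 FPKM. Differences are DPC minus HMC, and adjusted p-values are Benjamini-Hochberg values over all 11883 genes tested, with 0.05 as the threshold. The depth was at least 13.1 M to 14.0 M reads per library (M, mega), as recovered from the table. The median difference of all tested genes was -0.15 on the log2 scale. Rescaling by median-of-ratios size factors moved it to -0.02 and quantile normalization to 0.04, and the share of all calls that were higher in DPC went from 39.1% to 49.0% and 53.6%.

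The labels were first compared with marker genes. Of 16 epithelial markers tested, 15 were higher in HMC, and their summed level was 14755 to 15196 FPKM in HMC against 84.4 to 109 FPKM in DPC. Most of the HMC sum came from the simple epithelial keratins KRT19, KRT7, KRT8 and KRT18, at means of 4090, 3686, 3352 and 982 FPKM. The sum therefore speaks for epithelium in general and not for hair matrix. All 14 mesenchymal markers were higher in DPC, with sums of 20462 to 21257 FPKM against 659.7 to 779.1 FPKM in HMC. Over all genes tested, 46.2% were higher in HMC and 29.7% in DPC. The exception among the epithelial markers was KRT14, at 16.2 ± 3.63 FPKM in DPC against 15.0 ± 0.330 in HMC (SD, n = 3 each, limma adjusted p = 0.605). Of the 9 listed shaft genes that the table held, 5 were below the filter and not tested, and the others are described with HOXC13. KRT35, KRT75, KRT81, KRT83 and TCHH, genes of the shaft and its sheaths, were listed at 0 in every DPC library and at means of at most 0.558 FPKM in HMC. KRT83 had that highest mean, at 0.647, 0.639 and 0.389 FPKM in the HMC libraries, in the highest of its 3 rows.

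Markers of other cell types were also measured. Of 10 gland markers 7 were matched and 4 tested, and all 4 were higher in HMC, with sums over the matched markers of 7768 to 7926 FPKM against 27.4 to 31.0 FPKM in DPC. They were the simple epithelial keratins KRT7 and KRT19, which carry most of the sums and also stand among the epithelial markers, the mucin MUC1 (56.5 ± 2.21 FPKM in HMC, 0.105 ± 0.049 FPKM in DPC) and the pioneer factor FOXA1 (Hnf3a). AQP5, a water channel of secretory cells, was listed at 0 in every HMC library. Of 9 melanocyte markers 6 were matched and 4 tested, with 3 higher in HMC and MITF (BHLHE32) higher in DPC, and PMEL lost its call after rescaling. Their sums were 69.6 to 74.1 FPKM in HMC, mostly from EDNRB, and 5.96 to 6.37 FPKM in DPC, while MLANA had a mean of 0.135 FPKM in HMC and KIT was listed at 0 there. Of the immune markers, LAPTM5 was higher in DPC, CD14 and AIF1 in HMC, and CD3E had means of 0.013 FPKM in both. Endothelial PECAM1 and CDH5 had means of at most 0.035 FPKM in both groups. The 2 endothelial markers tested were both called, ENG, which mesenchymal cells also express, at 60.8 ± 1.69 FPKM in DPC against 1.96 ± 0.037 in HMC, and VWF (F8VWF) at 0.036 ± 0.017 against 1.08 ± 0.045 FPKM. The part of such cells in the levels below was not tested, and in these bulk samples fewer cells of a type and less RNA per cell cannot be told apart.

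Of the 9 regulators, 8 passed the filter on low values, and FOXN1 did not. Of those 8, 6 passed the test, against 75.9% of all genes tested. SOX9, GATA3, LEF1 and TP63 were higher in HMC, a direction held by 46.2% of all genes, and MSX2 and CRYM were higher in DPC, as were 29.7% of all genes. MSX1 and HOXC13 did not pass. The 3 libraries of one group lay wholly above those of the other for the same 6 genes, which was so for 77.9% of genes tested. At the second limit of at least 2-fold on the log2(FPKM + 1) scale 5 remained, all but TP63, against 27.1% of genes. SOX9, GATA3 and TP63 were below 0.5 FPKM in every DPC library and passed the filter through HMC, so a difference was built into their inclusion. The same holds for every tested gene of the lists that stayed under 0.5 FPKM in all libraries of a group. Among these are SLC7A8 and DLX3, low in DPC, and TCF7L1, SOX11, BMP4 and LHX2, low in HMC. Their calls, and the list counts and medians that include such genes, carry the same limit.

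**Figure D1:**
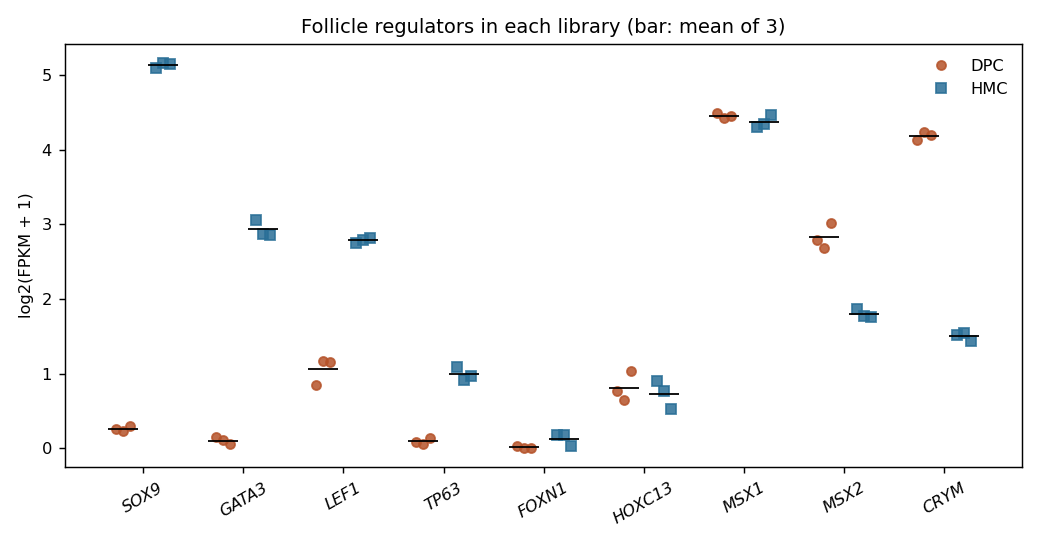
Level of each of the 9 regulators in each library, as log2(FPKM + 1); circles are the 3 DPC libraries, squares the 3 HMC libraries and the bars the group means. SOX9, GATA3, LEF1 and TP63 sit higher in all 3 HMC libraries, MSX2 and CRYM in all 3 DPC libraries, and the groups overlap for MSX1, HOXC13 and FOXN1.

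The order of levels differed between the cell types. In DPC the order by mean FPKM was MSX1, CRYM, MSX2, LEF1, HOXC13, SOX9, GATA3, TP63 and FOXN1. Within it the libraries of LEF1 and HOXC13 overlapped, and so did those of GATA3 and TP63. In HMC the order was SOX9, MSX1, GATA3, LEF1, MSX2, CRYM, TP63, HOXC13 and FOXN1, with no overlap between neighbours. MSX1 was thus near the top in both, with 75.5% of all genes in the table below it in DPC and 71.3% in HMC. SOX9 went from above 22.8% of genes in DPC to above 80.9% in HMC.

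SOX9 (ENSBGRG00000026479), a factor of outer root sheath progenitors, had the largest difference of the 9 genes. It stood at 0.195, 0.171 and 0.225 FPKM in the DPC libraries and at 33.1, 34.8 and 34.5 FPKM in the HMC libraries. No DPC library came near any HMC library, and the HMC values lay close together. The means were 0.197 ± 0.027 and 34.1 ± 0.899 FPKM (SD, n = 3 each), a ratio of 173, and the log2 difference was -4.88 ± 0.067 (SE, limma adjusted p = 2.1e-10). The DPC level rested on 42 recovered reads over 3 libraries and the HMC level on 7624.

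The listed SOX genes were made up differently in the 2 cell types. SOX9 and the other listed SOX genes found in the table, 10 in all, summed to 27.6 ± 0.699 FPKM in DPC against 87.2 ± 3.23 in HMC. Not every SOX gene was listed, so shares here are of these 10 only. Of the 4 tested besides SOX9, 3 were higher in HMC and 1 in DPC, against 46.2% and 29.7% of all genes. Their median log2 difference was -1.24 against -0.15 over all genes. SOX9 made up 0.716 ± 0.114% of that sum in DPC and 39.2 ± 0.981% in HMC. SOX4, a widely expressed factor, was the largest part in both, with 60.1% and 45.7%, and was higher in HMC, at 39.9 ± 2.10 against 16.6 ± 0.314 FPKM (log2 difference -1.22, limma adjusted p = 2.0e-07). SOX11 (Sox-11), a close relative of SOX4, went the other way. It had 8.09 ± 0.635 FPKM and 29.3% of that sum in DPC, but 0.282 ± 0.130 FPKM in HMC (2.83, limma adjusted p = 4.5e-08). SOX10, a neural crest and melanocyte factor that is also found in gland epithelium, was listed at 0 in all DPC libraries and had 1.42 ± 0.430 FPKM in HMC.

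SOX9 is a known target of Hedgehog signalling in follicle epithelium, so the genes of that pathway were set beside it. Of 9 listed, 7 were in the table and 6 were tested, of which 4 were higher in DPC, 1 was higher in HMC and SUFU, an inhibitor, did not pass (limma adjusted p = 0.370, but 0.045 and higher in DPC after rescaling by size factors). The shares over all genes were 29.7% toward DPC and 46.2% toward HMC, and the median log2 difference was 1.42 for the list against -0.15. The signal transducer SMO (Smoh) stood at 112, 103 and 106 FPKM in DPC and at 0.692, 0.785 and 1.38 FPKM in HMC. The transcription factors GLI1 (GLI), GLI2 and GLI3 were also higher in DPC, GLI2 at 2.46 ± 0.207 against 0.033 ± 0.026 FPKM. GLI1, itself a readout of the pathway, was listed at 0 in 2 HMC libraries and had a mean of 1.60 ± 0.403 FPKM in DPC. The receptor PTCH1 (PTCH), a target of the pathway like GLI1, was the exception, at 1.81 ± 0.312 FPKM in DPC against 5.28 ± 0.347 in HMC (-1.17, limma adjusted p = 1.2e-05).

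GATA3 (ENSBGRG00000014433), known for specifying the inner root sheath, was close to absent from DPC. It stood at 0.108, 0.074 and 0.036 FPKM in DPC, from 3, 2 and 1 recovered reads, and at 7.33, 6.34 and 6.27 FPKM in HMC. The groups did not overlap, with means of 0.073 ± 0.036 and 6.65 ± 0.592 FPKM (SD, n = 3 each) and a log2 difference of -2.83 ± 0.089 (SE, limma adjusted p = 1.9e-08). With so few DPC reads the ratio of the means, 91.1, is imprecise.

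GATA3 was also the main GATA gene of the HMC cultures. It made up 84.4 ± 1.44% of the summed FPKM of the 4 GATA genes in HMC and 5.02 ± 2.41% in DPC, where GATA2 made up 68.2 ± 8.58%. The level of GATA2, a factor of blood and endothelial lineages, was 0.990 ± 0.132 FPKM in DPC against 1.08 ± 0.042 in HMC and did not pass (limma adjusted p = 0.521). Of the 4 tested genes listed with GATA3, its cofactor ZFPM1 (FOG1) did not pass either (0.348), LMO4 was higher in DPC by 0.15 and TRPS1 was higher in HMC. TRPS1, an atypical GATA factor needed for hair growth, stood at 1.57 ± 0.279 FPKM in DPC against 2.51 ± 0.245 in HMC (-0.46, limma adjusted p = 0.0048).

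LEF1 (ENSBGRG00000006944), the DNA-binding partner of beta-catenin in the matrix, was present in both cell types. It stood at 0.796, 1.25 and 1.23 FPKM in DPC and at 5.74, 5.92 and 6.07 FPKM in HMC. Every HMC library was above every DPC library, and DPC library 1 was the lowest. The means were 1.09 ± 0.257 and 5.91 ± 0.168 FPKM (SD, n = 3 each), 5.41 times apart, with a log2 difference of -1.73 ± 0.105 (SE, limma adjusted p = 1.2e-06).

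The LEF/TCF genes share one DNA motif and the same partner, and their balance differed between the cell types. Their sum was higher in DPC, 26.9 ± 1.02 against 11.03 ± 1.03 FPKM. LEF1 was 3.02%, 4.75% and 4.39% of that sum in the DPC libraries and 54.6%, 57.0% and 49.7% in the HMC libraries. TCF7L1 (TCF3), mainly a repressor, had the reverse pattern, with 53.7 ± 1.30% of the sum in DPC and 2.88 ± 1.21% in HMC. Its level was 14.5 ± 0.721 FPKM in DPC against 0.323 ± 0.159 FPKM in HMC (3.55, limma adjusted p = 1.1e-08). TCF7L2 (TCF4) held a like share, 39.6% and 38.3%, at a higher level in DPC (10.6 ± 0.341 against 4.24 ± 0.685 FPKM). TCF7 (Tcf-1) was low in both and did not pass (limma adjusted p = 0.497).

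**Figure D2:**
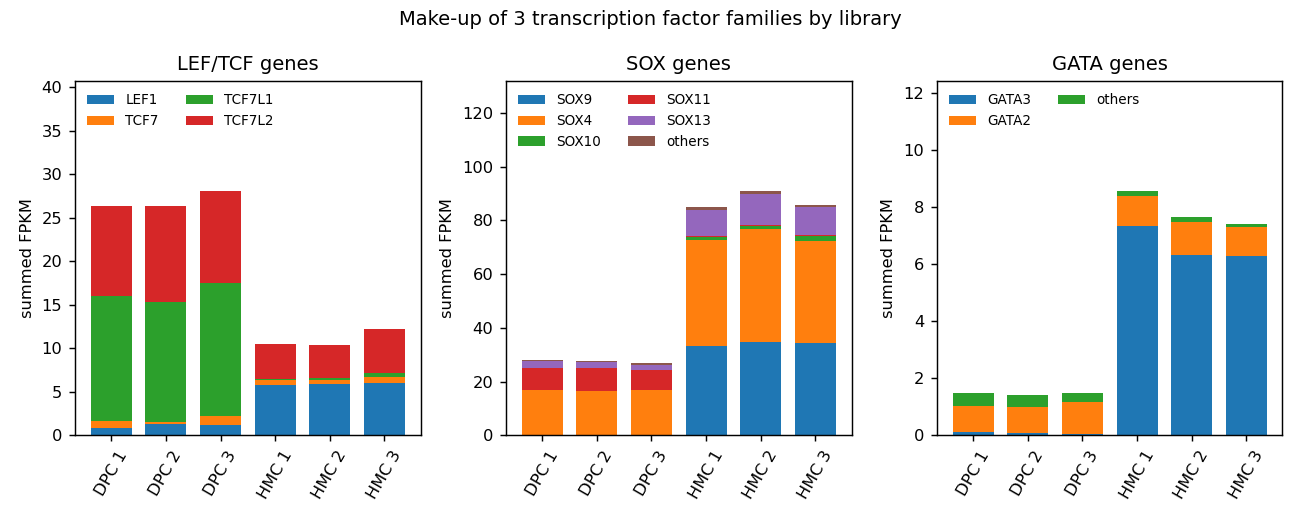
Summed FPKM of the listed LEF/TCF, SOX and GATA genes found in the table, in each library, stacked by gene. The vertical axis starts at 0 in each panel. LEF1 makes up 49.7% to 57.0% of the LEF/TCF column in HMC and is a thin layer in DPC, SOX9 and GATA3 appear in the HMC columns, and TCF7L1 and SOX11 in the DPC columns.

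Of 26 partners, inhibitors and targets of LEF1 listed, 24 were in the table and 19 were tested. Of these, 11 were higher in DPC and 6 in HMC, against 29.7% and 46.2% of all genes. TCF7 and TLE3 did not pass, and the median log2 difference was 0.20 against -0.15 over all genes tested. After rescaling by size factors the split was 12 to 6, and after quantile normalization 12 to 5. The plakoglobin gene JUP, which joins junctions and can bind TCF factors, had the largest difference, at 10.7 ± 1.13 FPKM in DPC against 271 ± 5.48 in HMC (-4.54). Beta-catenin itself (CTNNB1) was the most abundant gene of the list and nearly equal, at 318 ± 14.5 FPKM in DPC against 276 ± 6.86 in HMC (0.20, limma adjusted p = 0.0024). The coactivator BCL9 (56.2 ± 1.49 against 5.42 ± 0.449 FPKM, 3.16) and the inhibitor NKD2 (2.80) were higher in DPC. RNF43, a WNT-induced brake on Frizzled receptors, had 0.053 ± 0.092 FPKM in DPC and 11.1 ± 0.634 FPKM in HMC (-3.53).

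Common transcriptional readouts of WNT signalling differed in direction. CCND1, which drives entry into S phase, had 162 ± 3.37 FPKM in HMC and 58.5 ± 16.0 FPKM in DPC (-1.49, limma adjusted p = 4.6e-05). DKK1, a secreted antagonist, was higher in DPC (1.15, limma adjusted p = 0.0011). AXIN2 had means of 0.425 ± 0.140 FPKM in DPC against 0.405 ± 0.074 in HMC, LGR5 0.294 ± 0.177 and 0.281 ± 0.047 FPKM, and both were below the filter and not tested. SP5 and NOTUM were below it too, at 0.670 ± 0.038 and 0.790 ± 0.129 FPKM in DPC and 0.020 ± 0.034 and 0.037 ± 0.034 FPKM in HMC.

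TP63 (ENSBGRG00000000889), the master regulator of stratified epithelium and its basal layer, was low even in HMC. It stood at 0.061, 0.042 and 0.103 FPKM in DPC and at 1.14, 0.886 and 0.955 FPKM in HMC. Each HMC library was above each DPC library, from 151 recovered reads against 10. The log2 difference was -0.90 ± 0.093 (SE, limma adjusted p = 3.7e-05), which is under 2-fold on a scale whose added 1 FPKM is of the size of the HMC values. With a pseudocount of 0.1 it was -2.70. In HMC 30.6% of genes in the table had a lower mean than TP63.

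Many genes that TP63 is known to activate were, by contrast, abundant in HMC. The listed relatives and targets summed to 7865 to 10133 FPKM there and to 238 to 254 FPKM in DPC. S100A2 alone, at a mean of 5202 FPKM, made up most of the HMC sums, followed by KRT5 at 1083 FPKM. Of 28 relatives and targets listed, 27 were in the table and 24 were tested. Their median log2 difference was -5.28 against -0.15 over all genes tested. Of the 24, 21 were higher in HMC and 2 went the other way, against 46.2% and 29.7% of all genes. These calls were the same after rescaling and after quantile normalization. Many of these genes also serve as epithelial markers, whose sums moved the same way.

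The targets belong to the basal layer and its adhesion. S100A2, a calcium-binding protein of basal keratinocytes, stood at 27.7, 29.5 and 25.3 FPKM in DPC and at 6036, 5552 and 4018 FPKM in HMC (-7.49). KRT15 (-7.03), a keratin of the bulge and basal layer, and LAMB3 (LAMNB1, -6.56), a laminin chain that anchors epithelium to the basement membrane, followed. KRT5, the main basal keratin, had 1083 ± 59.8 FPKM in HMC and 38.1 ± 7.08 FPKM in DPC (-4.81), while its usual partner KRT14 did not pass. Among those that went the other way was the growth factor receptor FGFR3 (JTK4), at 2.46 ± 0.129 FPKM in DPC against 0.223 ± 0.052 in HMC (1.50).

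**Figure D3:**
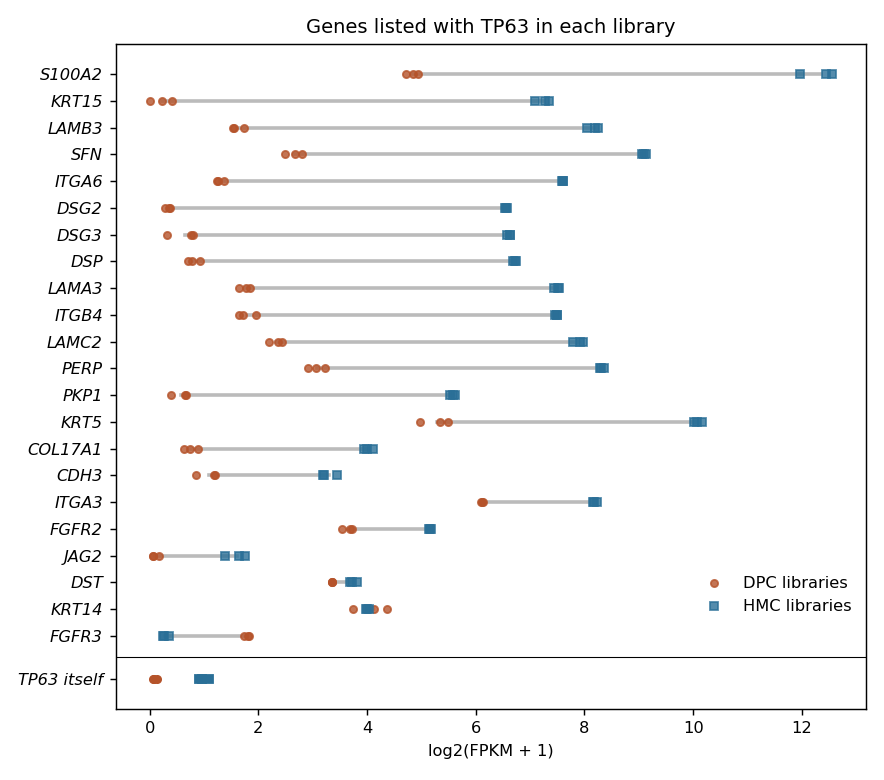
Level of 22 of the 24 tested genes listed with TP63, as log2(FPKM + 1), in each DPC library (circles) and HMC library (squares), with a grey line between the group means and TP63 itself under the rule. The HMC squares lie to the right for all but KRT14 and FGFR3, and in HMC TP63 lies near 1, lower than each gene above it but FGFR3.

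HOXC13 (HOX3G, ENSBGRG00000003766), which activates hair keratin genes in the matrix and shaft, was low in both cell types. It stood at 0.699, 0.559 and 1.04 FPKM in DPC and at 0.859, 0.702 and 0.435 FPKM in HMC, from 75 and 68 recovered reads in all. The groups overlapped, with means of 0.767 ± 0.249 and 0.665 ± 0.215 FPKM (SD, n = 3 each). The log2 difference was 0.08 ± 0.140 (SE, limma adjusted p = 0.601), with a 95% interval from -0.24 to 0.41, and its sign turned to -0.025 without DPC library 3 and to -0.019 without HMC library 3. At this depth no difference of HOXC13 was detectable.

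Of the other HOXC genes listed, HOXC6 (HOX3C) was the only one tested, at 14.0 ± 0.928 FPKM in DPC against 2.81 ± 0.112 in HMC (1.98, limma adjusted p = 5.2e-08). It made up most of the summed FPKM of the 3 HOXC genes in the table, 91.5% in DPC and 73.3% in HMC. HOXC13 made up 5.00 ± 1.68% and 17.0 ± 3.75%.

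FOXN1 (RONU, ENSBGRG00000024713), the nude gene, whose loss leaves hair shafts unformed, was at the limit of detection. It stood at 0.022 FPKM in DPC library 1 and 0 in the others, and at 0.127, 0.126 and 0.021 FPKM in HMC, from 1 recovered read in DPC and 13 in HMC. HMC libraries 1 and 2 held 6 reads each and HMC library 3 held 1, as did DPC library 1, so the groups overlapped. The exact permutation test over the 6 libraries gave a two-sided p of 0.2, where 0.1 is the smallest that 3 against 3 allows. Its relatives FOXN2 (HTLF; 6.46 ± 0.270 against 2.47 ± 0.32 FPKM, 1.11) and FOXN3 (CHES1; 7.00 ± 0.355 against 5.99 ± 0.737 FPKM) were far more abundant. FOXN3 did not pass (limma adjusted p = 0.0812, but 0.0115 after rescaling by size factors).

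The hair keratins and shaft proteins that HOXC13 and FOXN1 regulate were mostly low as well. Of 37 listed, 9 were in the table and 4 were tested, and sums over the 9 were 7.19 to 10.7 FPKM in DPC and 11.2 to 12.5 FPKM in HMC. KRT40 (0.019 ± 0.033 against 2.17 ± 0.299 FPKM, -1.63) and KRT39 (KA35; 0.017 ± 0.030 against 1.27 ± 0.238 FPKM, -1.16), both type I hair keratins, were higher in HMC. TGM3, a cross-linking enzyme of shaft and sheath, made up most of the sums, at 8.40 ± 1.78 FPKM in DPC against 6.64 ± 0.579 in HMC. TGM3 did not pass (limma adjusted p = 0.0806, but 0.019 and higher in DPC after rescaling by size factors), nor did S100A3 (S100E; 0.168). The 28 genes not matched, among them most shaft keratins, were not analysed here.

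MSX1 (ENSBGRG00000010388), a homeobox factor of matrix and mesenchyme, was high in both cell types. It stood at 21.5, 20.5 and 21.0 FPKM in DPC and at 18.8, 19.4 and 21.0 FPKM in HMC. HMC library 3 lay inside the DPC range, and the means were 21.0 ± 0.504 and 19.7 ± 1.15 FPKM (SD, n = 3 each). The log2 difference was 0.08 ± 0.060 (SE, limma adjusted p = 0.229), with a 95% interval from -0.05 to 0.22, so the libraries allow any difference in that range. After rescaling by size factors it was 0.23 (adjusted p = 0.0057) and after quantile normalization 0.30 (0.0018), both past the threshold.

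MSX2 (ENSBGRG00000012586), the paralog that is best known in the hair matrix, was instead higher in DPC. It stood at 5.94, 5.45 and 7.08 FPKM in DPC and at 2.63, 2.41 and 2.38 FPKM in HMC. The groups did not overlap, and DPC library 3 was the highest. The means, 6.15 ± 0.838 and 2.47 ± 0.138 FPKM (SD, n = 3 each), were 2.49 times apart, and the log2 difference was 1.04 ± 0.099 (SE, limma adjusted p = 2.1e-05). Without DPC library 3 it was 0.95, still past the threshold but under 2-fold. MSX2 made up 22.6 ± 2.29% of the summed FPKM of both MSX genes in DPC and 11.2 ± 1.05% in HMC.

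**Figure D4:**
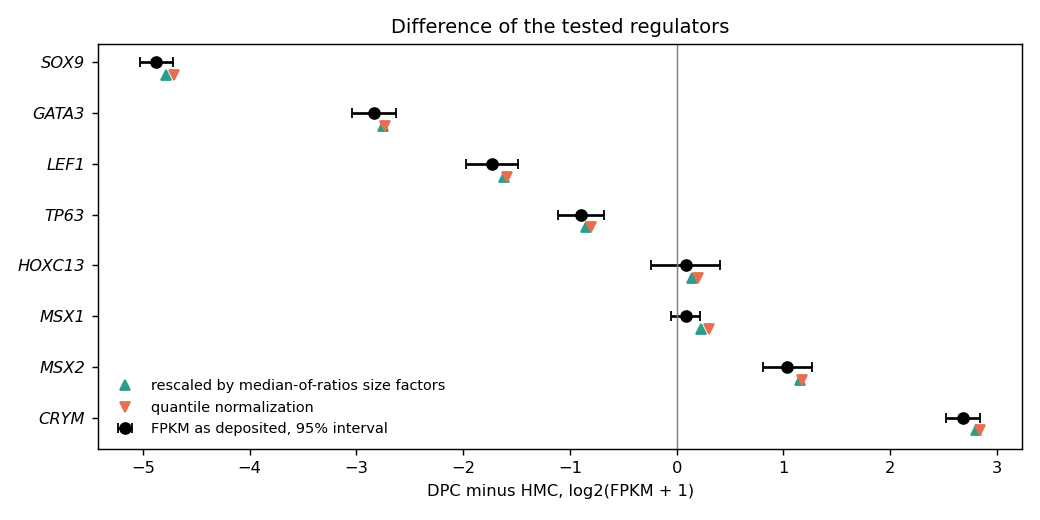
Difference of the 8 tested regulators, DPC minus HMC, on the log2(FPKM + 1) scale; black circles with bars are the deposited FPKM with 95% intervals, triangles the same after rescaling by size factors and after quantile normalization. The intervals of HOXC13 and MSX1 cross 0, and both rescalings move each gene toward DPC by a small amount next to the differences of SOX9, GATA3 and CRYM.

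BMP signals induce MSX genes, and most tested genes of that pathway were higher in DPC. Of 24 listed, 19 were in the table and 18 were tested. Of these, 14 were higher in DPC and 3 in HMC, against 29.7% and 46.2% of all genes. SMAD5 (MADH5) did not pass (limma adjusted p = 0.940). The median log2 difference was 0.99 against -0.15 over all genes tested, and no call changed after either rescaling. Mesenchymal markers, whose sums are given above, moved the same way.

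The ligands differed in direction. BMP4, the papilla ligand, stood at 10.5, 12.0 and 14.0 FPKM in DPC and at 0.484, 0.130 and 0.387 FPKM in HMC (3.30, limma adjusted p = 9.4e-08). BMP2 (4.92 ± 0.674 against 10.0 ± 1.26 FPKM, -0.90) and BMP7 (OP1; 0.277 ± 0.139 against 2.60 ± 0.398 FPKM, -1.49) were higher in HMC, as was the signal-carrying SMAD1 (12.0 ± 0.788 against 24.7 ± 1.28 FPKM, -0.99). The secreted antagonists CHRDL1 (NRLN1; 51.4 ± 0.815 against 0.448 ± 0.041 FPKM, 5.18) and NOG (Nog; 30.9 ± 0.135 against 0.647 ± 0.112 FPKM, 4.28) had the largest differences of the list. BMP4, its antagonists CHRDL1 and NOG, and MSX2 were thus all higher in DPC, while BMP2, BMP7 and SMAD1 were higher in HMC and MSX1 did not pass. Whether the levels of these genes bear on MSX2 was not tested.

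Immediate targets of BMP signalling were also higher in DPC. ID3, the most abundant gene of the list, stood at 501, 476 and 512 FPKM in DPC and at 110, 111 and 127 FPKM in HMC (2.09, limma adjusted p = 1.1e-08). ID2 (3.00), ID1 (BHLHB24, 2.07) and ID4 (BHLHB27, 1.22), inhibitors of basic helix-loop-helix factors like ID3, went the same way. So did SMAD6 (MADH6; 18.1 ± 0.600 against 3.16 ± 0.207 FPKM), an inhibitory SMAD that the pathway induces.

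CRYM (ENSBGRG00000025793), a cytosolic binding protein for thyroid hormone that is known as a papilla transcript, had the largest difference toward DPC of the 9 genes. It stood at 16.6, 17.9 and 17.3 FPKM in DPC and at 1.87, 1.91 and 1.72 FPKM in HMC. The groups lay far apart, and the libraries within each group lay close together. The means were 17.3 ± 0.643 and 1.83 ± 0.102 FPKM (SD, n = 3 each), 9.41 times apart, with a log2 difference of 2.69 ± 0.069 (SE, limma adjusted p = 5.7e-09).

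Genes that carry thyroid hormone or respond to it were split. Of 18 listed, 15 were in the table and 12 were tested, with a median log2 difference of 0.57 against -0.15 over all genes tested. Of the 12, 7 were higher in DPC and 5 in HMC, against 29.7% and 46.2% of all genes. After rescaling by size factors the split was 7 to 3, and after quantile normalization 8 to 2, since 3 calls changed, among them those of RXRB (Nr2b2) and NCOR1 (KIAA1047), which were higher in HMC by 0.33 or less. Both thyroid hormone receptors were higher in DPC, THRA (EAR7) at 10.9 ± 0.713 against 4.79 ± 0.362 FPKM and THRB (ERBA2) at 1.75 ± 0.233 against 0.048 ± 0.033 FPKM. Their partner RXRA (NR2B1) was higher in DPC too, by 1.07.

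The amino acid transporters that also take up thyroid hormone went in opposite directions. SLC7A5, the most abundant gene of the list, stood at 78.6 ± 3.42 FPKM in DPC against 37.7 ± 2.51 in HMC (1.04). SLC7A8 stood at 0, 0.177 and 0.044 FPKM in DPC and at 33.8, 31.0 and 26.4 FPKM in HMC (limma adjusted p = 2.6e-09). Its difference of -4.87 was the largest of the list. HR, a thyroid-responsive corepressor whose loss causes atrichia, was higher in HMC (1.42 ± 0.041 against 2.59 ± 0.342 FPKM, -0.56).

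Other transcription factors of follicle and surface epithelium were set beside the regulators. Of 40 listed, 33 were in the table and 26 were tested, with a median log2 difference of -2.04 against -0.15 over all genes tested. Of the 26, 23 were higher in HMC and 3 in DPC, against 46.2% and 29.7% of all genes. After rescaling by size factors 20 were higher in HMC and after quantile normalization 19, since CUX1 (CUTL1), PRDM1 (BLIMP1), RUNX1 (AML1) and HES1, all within 0.31 of 0, lost their calls. Large differences were those of general epithelial factors. The ETS factor EHF stood at 0.181, 0.062 and 0.122 FPKM in DPC and at 117, 122 and 117 FPKM in HMC (-6.74). ELF3 (Ert), another ETS factor, stood at 0.391 ± 0.123 FPKM in DPC against 48.7 ± 1.76 in HMC (-5.16).

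EHF, ELF3 and KLF5 (BTEB2; 4.25 ± 0.112 against 73.6 ± 4.52 FPKM, -3.83) were thus all above SOX9 in HMC. DLX3, a matrix homeobox factor acting upstream of HOXC13 and GATA3, stood at 0.253 ± 0.033 FPKM in DPC against 3.93 ± 0.410 in HMC (-1.97, limma adjusted p = 2.3e-07). FOXE1, FOXI3 and TBX1 had means of at most 0.639 FPKM in either group and were not tested. The vitamin D receptor VDR (NR1I1), needed for the hair cycle, stood at 23.3 ± 0.703 in DPC and 41.6 ± 2.40 FPKM in HMC, a difference of -0.81.

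The 3 factors that were higher in DPC are ones described in follicle or surface epithelium. KLF4 (EZF), a factor of keratinocyte differentiation that fibroblasts also express, stood at 36.9, 31.8 and 36.7 FPKM in DPC and at 2.05, 1.80 and 2.81 FPKM in HMC (3.50, limma adjusted p = 3.3e-08). LHX2 (LH2), a factor of follicle stem cells, stood at 2.41, 2.30 and 2.11 FPKM in DPC and at 0.157, 0.116 and 0.153 FPKM in HMC (1.52, limma adjusted p = 7.0e-07). NFATC1, which keeps bulge stem cells quiescent, stood at 3.85 ± 0.451 against 1.46 ± 0.173 FPKM (0.98). MSX2, LHX2, NFATC1 and KLF4 thus shared a direction that was opposite to that of SOX9.

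**Figure D5:**
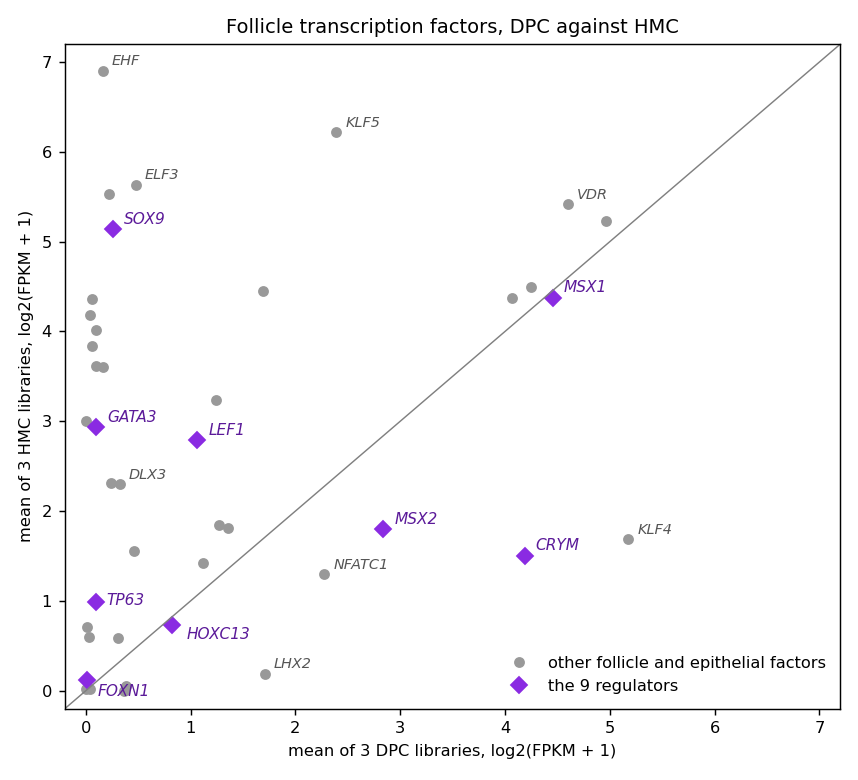
Mean level of the 9 regulators (diamonds) and of the other listed follicle and epithelial factors (circles) in DPC on the horizontal axis and HMC on the vertical axis, both as log2(FPKM + 1), with the line of equal levels. Most points lie above the line, near the left edge, where SOX9 and GATA3 also lie; MSX2, CRYM, KLF4, LHX2 and NFATC1 lie below it.

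For each tested regulator the genes with the most similar levels over the 6 libraries were found by the root mean square difference of log2(FPKM + 1). These genes are named here as listed, in part by older symbols. SOX9 was nearest to NES1 (0.082) and Baiap2l1 (0.089), and GATA3 to PNPLA3 (0.067) and GGT6 (0.079). LEF1 was nearest to NIP (0.161) and Rhbdl (0.170), and TP63 to DLEC1 (0.073) and NPY1R (0.078). MSX1 was nearest to USP31 (0.040) and UBE4B (0.048), MSX2 to CCDC2 (0.083) and MIG2 (0.121), and HOXC13 to THAP6 (0.060) and TCAP (0.103). CRYM was nearest to Kir (0.161), whose row is annotated with GTPase activity, and to the ETS factor ETV1 (0.175). ETV1 stood at 17.6, 18.6 and 18.5 FPKM in DPC and at 1.62, 1.49 and 2.38 FPKM in HMC. No regulator was among the 2 nearest genes of another, and with 2 groups of 3 such likeness describes level and difference only.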

How the data were processed

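Gene expression was measured by RNA sequencing in 3 DPC and 3 HMC libraries, made with a stranded mRNA kit, per the labels' protocols. The authors deposited FPKM for 15646 genes. Tools named, per the submitters' processing notes and with no roles given, are HISAT2 2.2.1.0, DESeq 1.20.0 and Trimmomatic. For counter, build and annotation nothing is given in the sources used here. Neither coordinates nor sequences are printed. FPKM corrects for length and depth, not for RNA composition. Whole reads could be recovered from the steps of the values for 100% of genes, up to a common factor per gene. The tolerance was 1e-05 of a read, and slightly wider for the largest values.

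Genes whose mean reached 0.5 FPKM were fitted on log2(FPKM + 1) with limma 3.58.1 (R 4.3.3), using a trend in the prior variance. No replicate block was used. The fit was tested on simulated data. Low genes change by more than a difference on this scale shows.

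The regulators, gene lists and tests were chosen with earlier results of these data known. Of 267 listed symbols, 108 matched directly, 89 matched through an older symbol, printed in parentheses where it is named, and 70 found no match and were left out. Named genes are the 9 regulators, up to 3 members of each list with the largest difference, the most abundant one and those against its direction, and the 2 nearest genes of each regulator. A few genes that this would name are left out of text and plots. Other named genes were chosen after their values were seen. Where several rows shared a listed symbol, as for KRT83, KRT5 and KRT8, the row with the highest mean was taken. Keratins and other paralogs may share reads, so their single values are uncertain. Lists are described by counts and medians, with no test.

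Alternatives were a pseudocount of 0.1, no filter, a stricter filter (5 FPKM), quantile normalization, median-of-ratios rescaling, a constant prior variance, leaving out each library and a block for the replicate number. Chosen after the data were examined was limma's voom fit on the recovered reads.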

Additional observations from a re-analysis of the deposited data

How the results depend on the processing

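The calls of SOX9, GATA3, LEF1, TP63, MSX2 and CRYM kept their direction and stayed past the threshold in every alternative in which they were tested. Differences ran from -7.40 to -4.71 for SOX9, -6.27 to -2.73 for GATA3, -2.45 to -1.59 for LEF1, -3.73 to -0.80 for TP63, 0.95 to 1.30 for MSX2 and 2.66 to 3.21 for CRYM. With a filter at a mean of 5 FPKM only SOX9, MSX1 and CRYM were tested, and 2 passed, 1 higher in DPC and 1 in HMC. Leaving out each library in turn kept 6 regulators past the threshold, 2 higher in DPC and 4 in HMC, and 8560 to 8757 of all genes. MSX1 passed after rescaling by size factors (0.23) and quantile normalization (0.30), where 7 regulators passed. HOXC13 did not pass in any alternative. Leaving out each library in turn gave it values from -0.025 (without DPC replicate 3) to 0.17 (without DPC replicate 2), and -0.019 without HMC replicate 3. FOXN1 was tested only with no filter on low values and did not pass. Same-numbered libraries deviated together by correlations of only 0.02, 0.03 and 0.01, so no shared deviation by number was seen. Whether same-numbered libraries share an animal cannot be told from this, as no animals are named. With the replicate number as a block, 8924 genes and the same 6 regulators passed, against 9020 genes without it, and DPC library 3 correlated no better with its own number than with HMC library 2. Voom on the recovered reads called 9051 genes. Depth limits FOXN1, HOXC13 and the DPC levels of GATA3 and TP63, which rest on few reads.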

Other observations

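The table's own annotation gives another view of hair genes. Its terms that contain the words hair follicle, chosen after the data were examined, cover 40 rows, of which 32 were tested. Of these, 16 were higher in HMC, 9 were higher in DPC and 7 did not pass, with a median log2 difference of -0.19 against -0.15 over all genes tested. These counts are close to the background of 46.2% of all genes higher in HMC and 29.7% higher in DPC. SOX9 is the only regulator among them. Genes of this set that were higher in HMC include TMEM79 (-5.03), which takes part in epidermal barrier formation, the planar polarity cadherin Celsr1 (-4.12) and KRT17 (-3.11), a keratin of the follicle sheath. The activin antagonist FST stood at 1944 ± 14.6 FPKM in HMC (-3.21), the highest of the set there. The 3 genes higher in DPC by at least 2-fold were SMO (Smoh; 5.81), which had the largest difference of the set, LHX2 (LH2; 1.52) and the ectodysplasin ligand EDA (ED1; 1.07).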
